A study of Rattus norvegicus with 6 samples.

Results

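The assays for miR-297, miR-466, miR-467 and miR-669 are described here in the left ventricle of 3 LETO rats, labelled as healthy controls, and 3 OLETF rats, labelled as diabetic. LETO and OLETF are rat strains, and OLETF animals become obese and develop type 2 diabetes, so strain and diabetes cannot be told apart in this comparison. All 6 hearts were excised under anaesthesia and frozen, and the labels give no age or further treatment. The 20 assays were chosen by name: every assay whose miRNA name begins with miR-297, miR-466, miR-467 or miR-669, out of 584 miRNA assays. A Ct under 35 decided which of them have a level. The Ct, or threshold cycle, is the PCR cycle at which the product of a well crosses the detection threshold, so a lower Ct means more RNA. The group was put together with the result of miR-466d-3p already known, and the differences given for it are therefore descriptions.

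In the mouse, miRNA genes of these names lie in a long tandem array within a single intron of Sfmbt2, a Polycomb group gene that is imprinted and expressed from the paternal copy in extraembryonic tissue. The array arose from a repeated sequence rich in alternating U and G, so its miRNAs resemble each other closely. It is best known from the placenta and from embryonic stem cells. A star marks the strand of a hairpin that was annotated as the less abundant one, and 5p and 3p name the arm from which a mature miRNA is cut.

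Of the 20 assays, 18 carry a mouse name (mmu-) and 2 a rat name (rno-miR-466b and rno-miR-466c). By family, 3 were for miR-297, 8 for miR-466, 8 for miR-467 and 1 for miR-669. The RefSeq tables for the rat (build GRCr8) hold 5 hairpin genes with these names, and 4 of them lie within Sfmbt2 (chr17:72844037-73038599). These are Mir466d (chr17:72913004-72913096), Mir466c (chr17:72927601-72927679), Mir466b-2 (chr17:72942463-72942544) and Mir466b-1 (chr17:72945493-72945578), all on the minus strand like Sfmbt2 itself. The fifth, Mir297 (chr10:98715682-98715747, minus strand), lies on another chromosome, inside the span of the non-coding gene LOC102549836. The name of an Sfmbt2 cluster therefore holds for the rat Mir466 genes and not for rat Mir297. None of the 5 is named for miR-467 or miR-669, so no rat locus can be given here for those assays. Exons and introns were not used here, so the position of the hairpins relative to the exons of Sfmbt2 is not given.

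**Figure D1:**
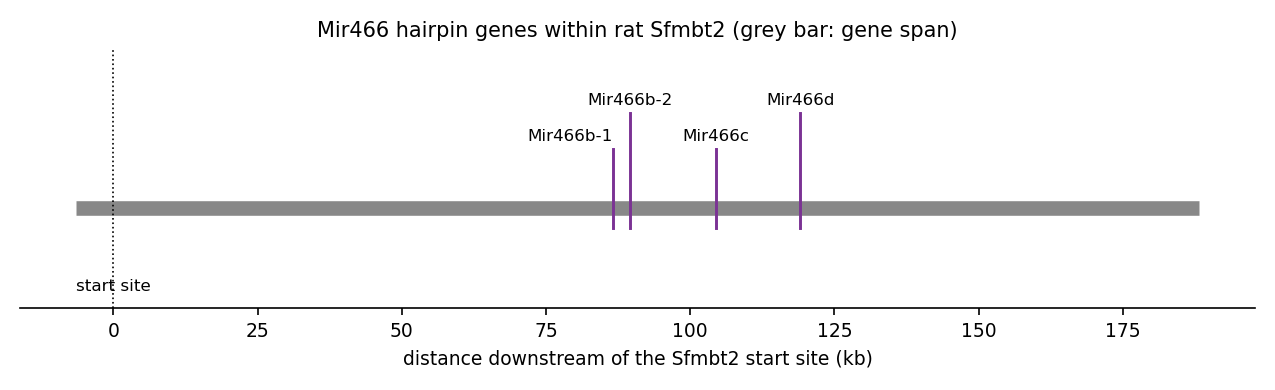
Position of the rat Mir466 hairpin genes within Sfmbt2. The horizontal axis is the distance in kb downstream of the Sfmbt2 start site, the grey bar is the annotated span of the gene, which also reaches upstream of that start, and each purple line is 1 hairpin gene. The 4 hairpins stand at 86.6, 89.6, 104.5 and 119.1 kb, within a stretch of 32.6 kb.

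The mature rat sequences of these genes are shown because their likeness bears on what a single assay can tell apart. They are given 5′ to 3′ from RefSeq, with the seed (bases 2 to 8), the part that pairs with target mRNAs, in capitals.
rno-miR-466d: aUGUGUGUguauguucuuuugu
rno-miR-466b-5p: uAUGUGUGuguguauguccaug
rno-miR-466c-5p: uGUGAUGUguguauguacaug
rno-miR-297: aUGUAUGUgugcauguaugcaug
rno-miR-466b-3p: aUACAUACacacacacauacac
rno-miR-466b-2-3p: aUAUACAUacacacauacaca
rno-miR-466c-3p: uAUACAUGcacacauacacac

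All 7 seeds differ from each other, and 0 other rat mature miRNAs of the 693 in the table share any of them. The sequences are alike all the same. miR-466d and miR-466b-5p share a run of 13 bases, UGUGUGUGUAUGU, and miR-466b-3p and miR-466b-2-3p share a run of 13 bases, AUACAUACACACA. At least 75% of the bases are G or U in miR-466d (86.4%), miR-466b-5p (77.3%) and miR-466c-5p (76.2%), against 36 of all 693 rat mature miRNAs (5.19%). The 3 sequences of the 3p arm are at least 75% A or C, against 14 of 693 (2.02%). miR-297 is 69.6% G or U. Whether the stem-loop assays tell such sequences apart was not tested.

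The 1 member measured in every sample is the mouse-named miR-466d-3p, which is named for a 3p arm. Whether that assay reads RNA of the rat gene was not tested. For comparison, the rat Mir466d hairpin is shown whole. Capitals mark the mature miRNA that the table lists for it, rno-miR-466d, which covers bases 16 to 37 of 93 and so lies on the 5′ side of the hairpin.
Mir466d hairpin: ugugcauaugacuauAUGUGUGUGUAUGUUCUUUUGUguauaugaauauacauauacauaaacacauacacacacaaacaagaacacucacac
No assay name matched an entry of the table in full, and without the species prefix 1 did, miR-466c-5p. Among the unmatched names are miR-466d-3p, miR-467a*, miR-467b* and the rat-named miR-466b and miR-466c, whose names give no arm.

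Heart muscle miRNAs were measured in all samples: all 7 assays for miR-1, miR-133a, miR-133b, miR-208, miR-208b and miR-499 had a Ct under 35 in 6 of 6. The embryonic stem cell and placenta markers of the miR-290 to miR-295 cluster, by contrast, were under 35 in 0 of 13 assays, and 1 late signal came from an OLETF sample. LETO replicate 3 stood apart from the other libraries with 50% of the 584 assays under 35, against 33.7% to 39.0% in the others, so results are also given without it. On card B, the block of wells that holds miR-466d-3p, miR-467a* and miR-467b*, the small nuclear RNA U6, used as reference, read 17.3 ± 1.03 cycles in the LETO hearts and 17.2 ± 0.549 in the OLETF hearts (SD over 3 samples). The summed level of the heart muscle miRNAs relative to U6 was lowest in LETO replicate 2 (1.03, against 1.15 to 2.79 in the other samples). The smooth muscle markers miR-143 and miR-145, both measured in all samples, summed to 0.0331, 0.00794 and 0.183 in LETO replicates 1, 2 and 3, against 0.0108, 0.0125 and 0.0704 in OLETF. The summed endothelial markers were highest in both replicates 3 (1.09 in LETO and 0.790 in OLETF, against 0.182 to 0.314 in the others). Leukocyte markers, 3 or 4 of 4 measured, summed to 0.00209 to 0.0140 in LETO and 0.00387 to 0.00962 in OLETF, and red cell markers, 1 or 2 of 2 measured, to 0.0121 to 0.0387 and 0.0220 to 0.0420. The part of these cell types in the results was not tested.

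Most of the group was not measured in the ventricle. Of the 20 assays, 10 gave no signal in any well of any sample, 6 gave only signals at a Ct of 35 or later, and 4 had a Ct under 35 in at least 1 sample. Those 4 were miR-466d-3p, miR-467a*, miR-467b* and rat miR-466c. Never under 35 were 16 of 20 assays (80.0%), beside 275 of all 584 (47.1%). In the Dlk1-Dio3 cluster, another imprinted array of miRNA genes, it was 51 of 70 (72.9%). The 10 without any signal were miR-297b-5p, miR-466a-3p, miR-466b, miR-466b-3-3p, miR-466d-5p, miR-466h, miR-467a, miR-467b, miR-467d and miR-467e*.

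The signals that did appear came mostly from LETO hearts. Members with any determined well numbered 5 for LETO replicate 1, 4 for replicate 2 and 8 for replicate 3, against 2, 3 and 3 for the OLETF hearts in the same order. The groups did not overlap: every LETO sample gave more members than any OLETF sample. The means were 5.67 ± 2.08 and 2.67 ± 0.577 (SD, n = 3 each), a difference of -3 with a two-sided exact permutation p = 0.1, the smallest that 3 against 3 samples allow. Without LETO replicate 3 the difference was -1.83. Over all 584 assays the LETO samples averaged 296 ± 53.7 and the OLETF samples 275 ± 22.8 (SD over 3 samples; exact permutation p = 0.7), and without LETO replicate 3 it was higher in OLETF by 9.83.

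With a Ct under 35 as the rule, the LETO hearts had 3, 2 and 4 members and the OLETF hearts 1, 2 and 2, in order of replicate. Here the groups overlapped. The means were 3.00 ± 1.00 and 1.67 ± 0.577, a difference of -1.33 (SD, n = 3 each; two-sided exact permutation p = 0.3). It was -0.83 without LETO replicate 3. Over all 584 assays, 234 ± 50.6 and 208 ± 17.1 were under 35 (SD over 3 samples; exact permutation p = 0.5), a difference of -25.3 that turned to 3.83 without LETO replicate 3.

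**Figure D2:**
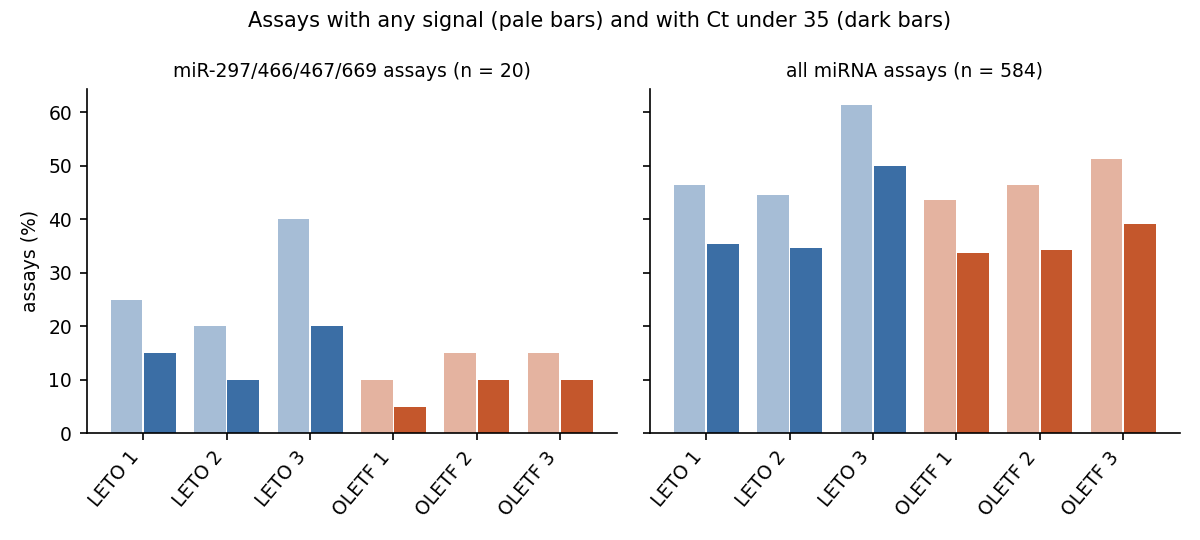
Share of assays with any determined well (pale bars) and with a Ct under 35 (dark bars) in each sample, in percent, for the 20 members on the left and for all 584 miRNA assays on the right. Pale bars of the members run from 20% to 40% in LETO (blue) and from 10% to 15% in OLETF (orange), while those of all assays overlap between the strains.

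Members with a signal in only some samples had it in LETO more often than in OLETF. Of the 8 members determined in 1 to 5 samples, 7 were determined in more LETO than OLETF samples, and 0 in more OLETF samples. Over all assays determined in 1 to 5 samples the share was 50.5% (93 of 184). By card, it was 5 of 5 members on card A, beside 41.7% of all such assays there, and 2 of 3 on card B, beside 63.2%. All 7 were determined in LETO samples alone: miR-297a*, miR-297c, miR-466c, miR-466c-5p, miR-467c, miR-467e and miR-669a. The share of all assays that meet this stricter rule was not counted. Of these, miR-466c-5p, miR-467e and miR-669a gave a signal in LETO replicate 3 alone, the library with the most assays. That makes 3 of the 8 members determined in 1 to 5 samples, beside 35 of the 184 such assays in all. On card A, the other block of wells, the 11 members gave 2, 1 and 3 signals in LETO replicates 1, 2 and 3. Each OLETF sample gave 0. Over all 375 assays of card A, 52.2% had a signal in LETO and 51.1% in OLETF on average. The signals of the members had Ct values from 34.5 to 38.8. Such late cycles come from very few template molecules, and each rested on a single well.

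The 6 members with late signals only read as follows. miR-297c read 37.7 cycles in LETO replicate 2, and miR-467c read 38.8 in LETO replicate 1. In LETO replicate 3, miR-467e read 38.3, miR-669a 37.0 and miR-466c-5p 37.0. miR-297a*, with 2 wells per sample, averaged 35.9 cycles in LETO replicate 3 and read 35.5 in LETO replicate 2. No OLETF well of these 6 gave a signal.

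Rat miR-466c had the 1 value under the limit on card A. Just inside lay rat miR-466c in LETO replicate 3, at 34.5, and just outside lay miR-297a* in LETO replicate 2, at 35.5, and miR-467b* in OLETF replicate 3, at 35.6. Rat miR-466c had a further late signal in LETO replicate 1, at 38.7, and was undetermined in the other 4 samples. At 34.5 it ranked 196th of 202 measured assays on card A of that sample.

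miR-466d-3p was the 1 member measured in all 6 samples. It has 2 wells on card B. Values are given in the order of replicates 1, 2 and 3 from here on. Its first well read 28.7, 29.98 and 26.0 cycles in LETO against 34.3, 31.7 and 30.1 in OLETF. The second well read 27.9, 30.3 and 28.3 cycles in LETO and 32.5 and 30.4 in OLETF replicates 1 and 2, and was undetermined in OLETF replicate 3. Every determined OLETF well came later than every LETO well, with 1 exception. The second well of LETO replicate 2, at 30.3 cycles, came after the OLETF replicate 3 well at 30.1. Averaged over determined wells, LETO replicate 2 (30.13) also came after OLETF replicate 3 (30.07), so the strains overlapped in raw Ct. How many other assays come as close to a separation by well was not counted.

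The repeat wells of this assay were less alike than most. Well 1 minus well 2 was 0.80, -0.29 and -2.30 cycles in LETO and 1.81 and 1.29 in OLETF replicates 1 and 2. Over 189 pairs of repeat wells on card B, both under 35, the spread of single wells (SD) came to 0.486 cycles, and 4 pairs differed by over 2 cycles. That spread was 0.282 for the 84 pairs with a mean under 30 cycles and 0.602 for the 105 pairs at 30 to 35. LETO replicates 1 and 3 fall in the first range for miR-466d-3p. LETO replicate 2 and OLETF replicates 1 and 2 fall in the second. The OLETF replicate 3 pair, 30.1 cycles against undetermined, was the only 1 of 96 pairs with an earlier well under 31 in which the other well gave nothing. The level of miR-466d-3p in OLETF replicate 3 therefore rests on a single well.

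**Figure D3:**
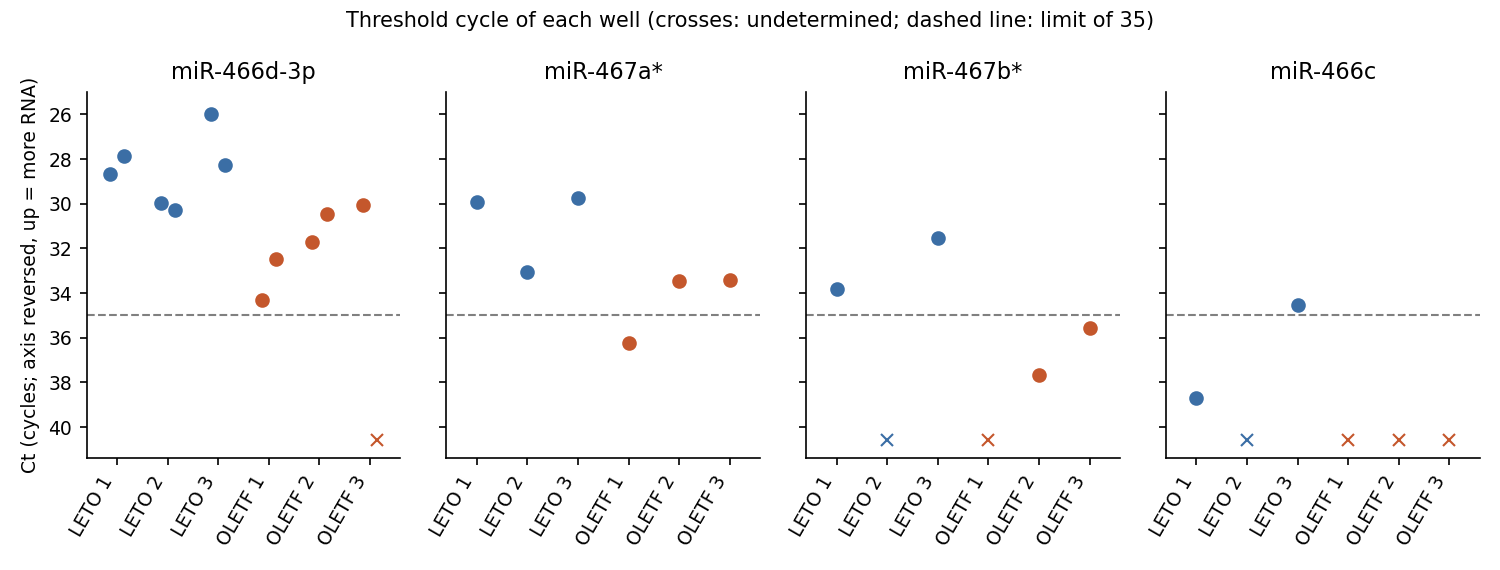
Ct of each well, in cycles, of the 4 members with a Ct under 35 in at least 1 sample. The vertical axis is reversed so that more RNA is up, the dashed line is the limit of 35, and crosses are undetermined wells. LETO wells (blue) of miR-466d-3p lie from 26.0 to 30.3 cycles and OLETF wells (orange) from 30.1 to 34.3, and miR-466c gave no signal in OLETF.

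Relative to U6, the level of miR-466d-3p was -10.54, -14.05 and -9.17 log2 units in LETO, against -16.43, -14.22 and -12.21 in OLETF. A level here is minus the difference between the Ct of the assay and that of the reference, and 1 unit is a doubling if each cycle doubles the product. The groups overlapped, because LETO replicate 2 lay below OLETF replicate 3. The means were -11.25 ± 2.52 and -14.29 ± 2.11 (SD, n = 3 each), a difference of -3.03 (SE 1.38; limma adjusted p = 0.997). As a fold this is 8.18 times more in LETO. Without LETO replicate 3 the difference was -1.99, beside a median of 0.38 over all assays then tested. Without OLETF replicate 1 it was -1.96, beside a median of -0.28.

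Within each sample, the place of miR-466d-3p among the measured assays of card B needs no reference RNA. It ranked 16th of 63, 19th of 57 and 18th of 90 from the highest level in the LETO hearts, and 31st of 47, 24th of 55 and 24th of 63 in OLETF. The share of measured assays below it was 74.6%, 66.7% and 80.0% in LETO and 34.0%, 56.4% and 61.9% in OLETF. All 3 OLETF samples thus placed it lower than any LETO sample did, as was the case for 2 of the 40 assays measured in all samples on card B (5%). The number of measured assays differs between samples, from 47 to 90, and moves these ranks.

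Relative to the median Ct of card B, taken over assays measured in all samples, miR-466d-3p stood at 0.86, 0.13 and 0.61 log2 units in LETO and at -2.68, -1.06 and -1.47 in OLETF. Each LETO sample lay above the card median and each OLETF sample below it. The means were 0.53 ± 0.37 and -1.74 ± 0.84 (SD, n = 3 each), a difference of -2.27 (SE 0.492; limma adjusted p = 0.288). Such a separation downward was seen in 9.26% of the 162 assays measured in all samples with this reference, and in 0% with U6. It was -2.23 without LETO replicate 3, and was -1.79 without OLETF replicate 1.

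Relative to the other small RNA controls, miR-466d-3p differed by -1.53, and no OLETF sample reached a LETO sample. With that reference, 0.617% of the 162 assays lay lower in every OLETF sample, which is miR-466d-3p alone, while the median change of all tested assays was 0.37. With the median of the whole array it differed by -2.78, again without overlap, beside 7.41% of assays. Its direction was thus the same under all 4 references, which are computed from the same Ct values.

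miR-467a*, the annotated passenger strand of miR-467a, was measured in 5 of 6 samples. Its single well on card B read 29.9, 33.0 and 29.7 cycles in LETO against 36.3, 33.5 and 33.4 in OLETF. The OLETF replicate 1 value is past the limit of 35 and does not enter the fit. All LETO samples came before all OLETF samples in raw Ct, as did 5 of the 206 assays determined in all samples (2.43%). LETO replicate 2, at 33.0 cycles, lay close to OLETF replicates 2 and 3.

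Relative to U6, miR-467a* stood at -12.22, -16.97 and -11.78 log2 units in LETO and at -16.62 and -15.56 in OLETF replicates 2 and 3. The groups overlapped through LETO replicate 2. The means were -13.66 ± 2.88 (SD, n = 3) and -16.09 ± 0.75 (SD, n = 2), a difference of -2.43 (SE 1.54; limma adjusted p = 0.997). With the late OLETF replicate 1 value counted, as in a limit of 38, the difference was -3.50 relative to U6. Without LETO replicate 3 it was -1.49.

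Relative to the card median, miR-467a* stood at -0.82, -2.79 and -2.01 in LETO and at -3.45 and -4.82 in OLETF replicates 2 and 3. The groups did not overlap, and the late OLETF replicate 1 well, at -5.53, lay lower still. Of the 14 assays measured, like miR-467a*, in 3 LETO and 2 OLETF samples, 5 separated downward in this way (35.7%). The difference was -2.26 (SE 0.691; limma adjusted p = 0.608). By rank, miR-467a* was above 63.5%, 40.4% and 60% of the measured card B assays in LETO and above 29.1% and 23.8% in OLETF replicates 2 and 3.

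**Figure D4:**
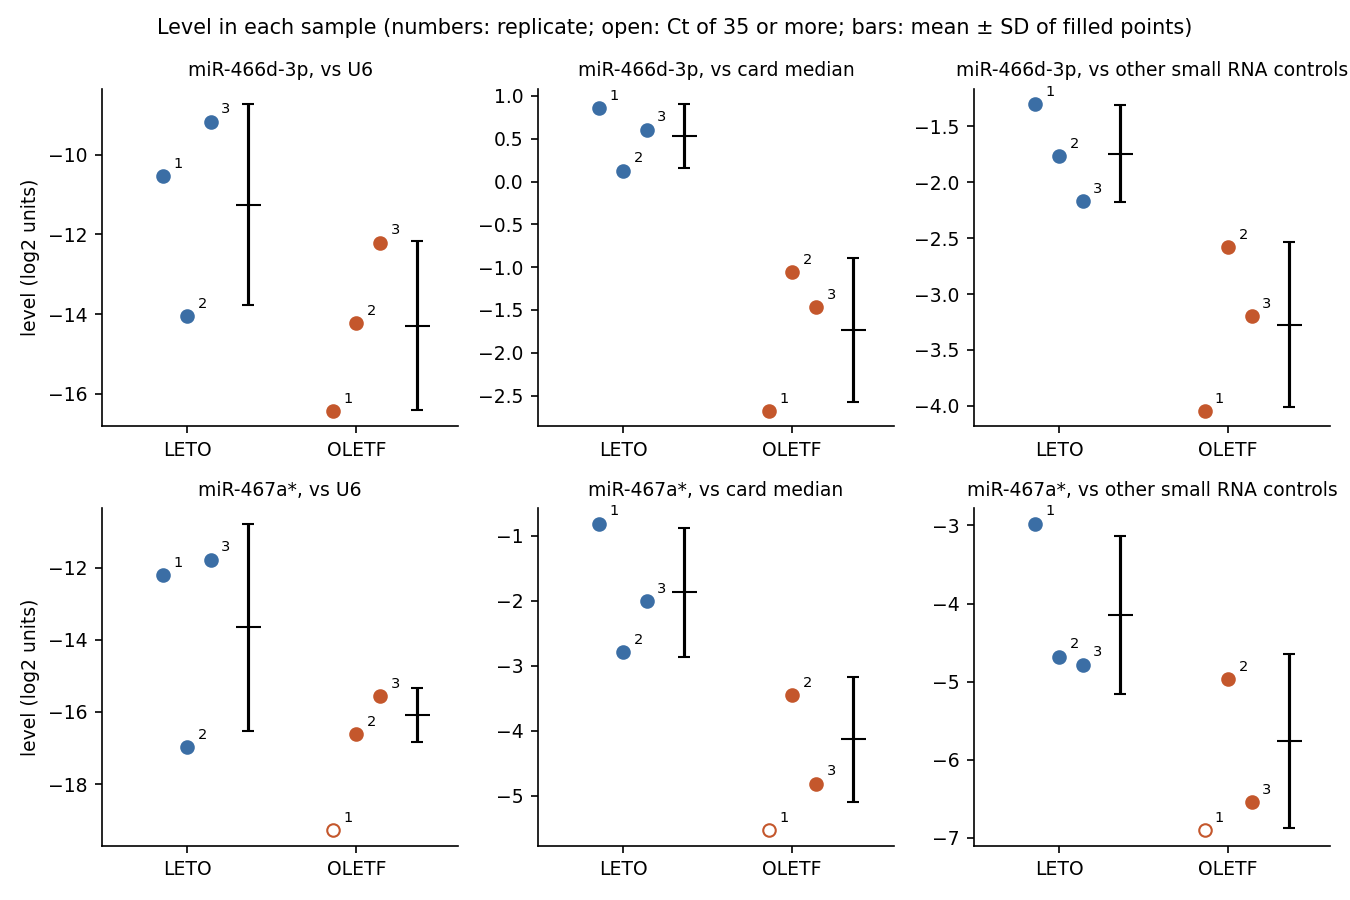
Level of miR-466d-3p (top) and miR-467a* (bottom) in each sample, in log2 units relative to U6, to the card median and to the other small RNA controls. Numbers are replicates, the open circle is a Ct past 35 that was not averaged, and bars are the mean ± SD of the filled circles. Relative to U6 both strains overlap, and relative to the card median all LETO samples lie above all OLETF samples for both miRNAs.

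miR-467b* was near the limit of detection. It read 33.8 cycles in LETO replicate 1 and 31.5 in LETO replicate 3, and was undetermined in LETO replicate 2. In OLETF it was undetermined in replicate 1 and came late in replicates 2 and 3, at 37.7 and 35.6 cycles. A Ct under 35 was thus seen in 2 LETO hearts and in 0 OLETF hearts, too few for the fit. With a limit of 38 its difference relative to U6 was -4.44 (limma adjusted p = 0.992, from 2 samples of each strain).

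The strand partners of these miRNAs gave no level. miR-467a and miR-467b, the strands annotated as the more abundant ones, were undetermined in all 6 samples, while their star strands were measured. Likewise miR-466d-5p was undetermined in both wells of all 6 samples, while miR-466d-3p was measured throughout. Assays amplify with different efficiency, so these Ct values do not give the ratio of the strands.

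Among all 193 tested assays, 0 passed an adjusted p of 0.05 relative to U6 (limma; 0%), and 2 had an unadjusted p under 0.05, among them miR-466d-3p. Of the 20 members, 2 could be tested, and 0 passed. Both lay lower in OLETF, with a median of -2.73, beside a median of -0.60 over all tested assays, of which 156 of 193 were lower. Over the tested assays of card B alone, where both members lie, the median was -1.12. miR-466d-3p had the second lowest and miR-467a* the third lowest difference of the 193. With the card median they were the lowest and the second lowest, at -2.27 and -2.26, beside a median of -0.31 over all tested assays and -0.36 over those of card B. As bulk tissue was measured, fewer cells carrying a miRNA and less of it per cell cannot be told apart.

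**Figure D5:**
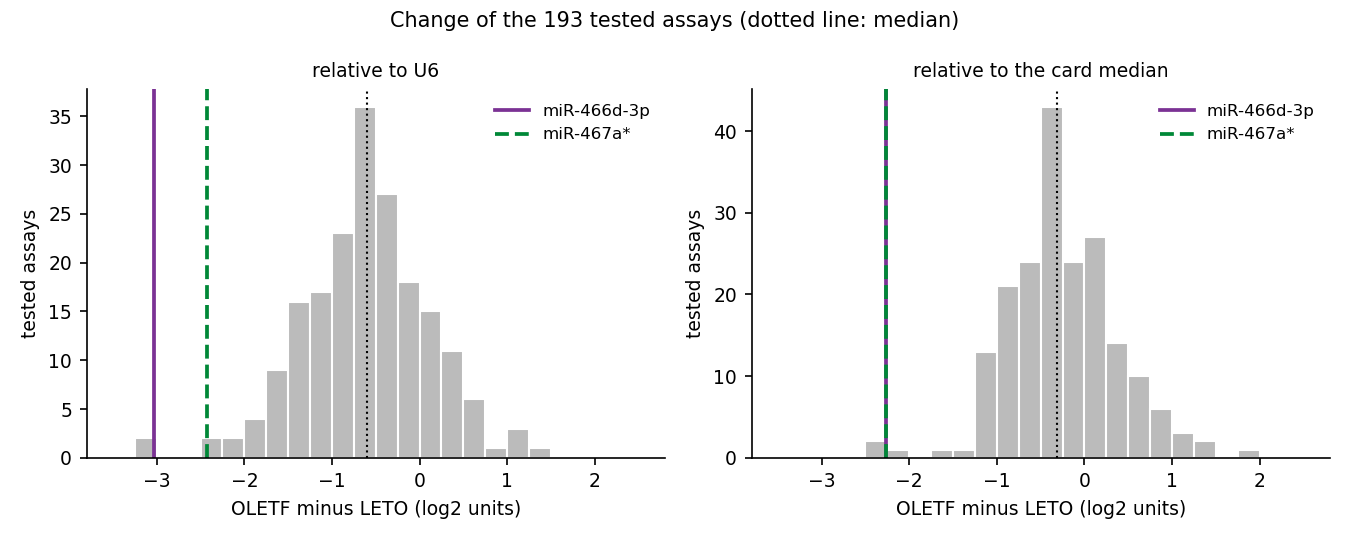
Difference between OLETF and LETO, in log2 units, of the 193 tested assays relative to U6 (left) and to the card median (right), as counts of assays. Lines mark miR-466d-3p, miR-467a* and, dotted, the median of all assays. Both members lie at the lower edge, at -3.03 and -2.43 on the left and at -2.27 and -2.26 on the right.

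In their calculation, the authors' deposited ratios treat replicate 3 of each strain in another way than replicates 1 and 2. The labels name no batch, so a batch block here only means a separate term for replicate 3 of each strain. With replicate 3 set apart as a batch block, miR-466d-3p passed (-3.03, SE 0.795; limma adjusted p = 0.0297), the only 1 of 193 assays to do so (0.518%), and miR-467a* did not (-2.77; limma adjusted p = 0.142). The call was lost with the same block and the card median as reference (-2.27, SE 0.484; limma adjusted p = 0.294). There 0 of 193 assays passed (0%), and 24 had an unadjusted p under 0.05. Within replicates 1 and 2 alone, miR-466d-3p differed by -3.03 (limma adjusted p = 0.597). There the replicates 1 stood at -10.54 in LETO and -16.43 in OLETF, and the replicates 2 nearly level at -14.05 and -14.22. Weights per array let both members pass, at -4.33 and -3.90, together with 15.5% of all assays. These weights leaned on LETO replicate 1 (3.02) and OLETF replicates 1 and 2 (3.25 and 3.70), and the other 3 samples had 0.237 to 0.354.

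In the authors' deposited table, the ratio of OLETF over LETO was 0.0906 and 0.165 for the wells of miR-466d-3p, 0.0887 for miR-467a* and 0.158 for miR-467b*. Of the 26 wells of the group, 11 were listed there at 0.5 or less (42.3%), beside 28.1% of all 734 miRNA wells. In 9 of these 11 at least 1 sample was undetermined. An undetermined well counts there as 40 cycles, except in replicate 3 where the assay's other well was determined. In that case the determined well stands for both, as in the second wells of miR-466d-3p (OLETF) and miR-466c-5p (LETO). The 6 members without any signal on card A were all listed by the authors' deposited table at 0.841 and the 4 on card B at 0.985. Those are the ratios that the U6 values alone give.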

How the data were processed

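Per the labels' protocols, RNA of the ventricle was copied with a pool of stem-loop primers and amplified on a 7900HT instrument, with U6 as endogenous control; the array is named as TaqMan and the dye as SYBR Green. Other settings are not given in the sources used here. The first deposited table holds Ct per well, a number of another kind than counts, with 768 wells per sample in 2 blocks of 384 rows (cards A and B). The deposited normalized values are delta Ct on a log2 scale, and the third deposited table holds a ratio (fold) of OLETF over LETO. On card B, the ratios of 380 of 380 wells were recomputed when replicate 3 of each strain was entered as the assay's mean over its wells.

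Each assay's determined wells were averaged, and a Ct of 35 or more counted as not measured. Assays with a level in 2 or more samples of both strains were fitted together with limma 3.58.1 in R 4.3.3 (lmFit, eBayes, two-sided, Benjamini-Hochberg, threshold 0.05), after a check on simulated data. The SE given is moderated over all assays; the ordinary SE was 1.90 for miR-466d-3p and 2.18 for miR-467a*. Counts per sample were compared by exact permutation in scipy 1.17.1. Alternatives changed the reference, the Ct limit, the weights, the blocks, the wells and the samples used. Every member with a Ct under 35 in any sample was named with its values, and the others were named once. The members and lists were chosen with earlier results of these data known. The labels number the replicates without giving litters or days, so the p-values rest on these 6 samples only. In limma they set a difference between strains against a spread between samples that is moderated over all assays.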

Additional observations from a re-analysis of the deposited data

How the results depend on the processing

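The count of 0 assays at adjusted p under 0.05 (limma) held in 17 of 20 alternatives, as did the count of 0 members. An unadjusted p under 0.05 was seen for 2 assays, and without moderation for 1, which was not a member. With array weights it was 30 assays and 2 members, with the replicate block 1 assay and 1 member, and with replicate 3 as a batch block 1 and 1; the cause was not tested. Correlations of deviations were -0.088, 0.23 and 0.62 for replicate numbers 1, 2 and 3 (162 assays). The numbers thus did not pair the samples throughout, though the replicates 3 deviated alike. Under the replicate block miR-466d-3p stayed at -3.03 (limma adjusted p = 0.0394) while miR-467a* was -1.71. Leaving out 1 sample at a time gave 0 assays and 0 members throughout. miR-466d-3p then ran from -4.43 (without LETO replicate 2) to -1.96 (without OLETF replicate 1). The median over all assays tested in those fits was -1.57 and -0.28. miR-467a* ran from -4.09 to -1.49, where it could be tested. Over all settings both stayed lower in OLETF, miR-466d-3p from -4.43 to -1.53 in 30 alternatives and miR-467a* from -4.09 to -1.49 in 23. Their limma adjusted p ran from 1.62e-07 to 1.00 and from 4.23e-05 to 1.00. The first well alone gave -3.85 and the last well alone -2.999 for miR-466d-3p. The number of measured members differed by -3 (no Ct limit) to -0.83 (without LETO replicate 3) in 11 alternatives, by -1.83 to -0.83 on leaving out 1 sample, and by -1.33 with the replicate block. The single-well values, the fits within replicates 1 and 2 and the batch block and left-out samples under the card median were chosen after seeing the data. With no Ct under 35 in 16 of 20 members, no difference in level could be given for them; why they gave none was not tested.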
